A study of Caenorhabditis elegans with 2 samples.

Results

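The genome of Caenorhabditis elegans encodes 261 annotated microRNA genes among 46890 nuclear genes, and the binding of LIN-38 was scored at each of them. They were taken as every nuclear gene that Ensembl release 115 classes as a microRNA on WBcel235, the assembly also called ce11, whatever its binding. LIN-38 belongs to the synMuv A proteins, nuclear factors that overlap in function with the synMuv B proteins in restraining vulval development. It was mapped by chromatin immunoprecipitation and sequencing (ChIP-seq) in 2 biological replicates that form 1 group. All animals were whole L4 larvae, 48 hours old, of strain RW12236, grown from arrested first-stage larvae that had been starved after bleaching. This strain carries the allele st12236[lin-38::TY1::EGFP::3xFLAG], an insertion made with CRISPR at the lin-38 locus on chromosome II. LIN-38-EGFP was recovered from sonicated chromatin with an antibody against GFP. Whole animals mix every tissue and the sex was not recorded, so a peak cannot be placed in a cell type. There was no second genotype, stage or treatment, and 1 tagged line supplied both replicates.

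MicroRNAs are short RNAs, cut from hairpin precursors, that guide an Argonaute protein to messenger RNAs and lower their translation or stability. Target choice rests mainly on the seed, the bases after the first one of the mature RNA, so microRNAs that share a seed form a family. In the worm the lin-4 and let-7 families time larval development, the mir-35 and mir-51 families are needed in the embryo, and the mir-58 family is among the most abundant. Many hairpins are cut from 1 long primary transcript or lie in an intron of a protein-coding host gene, so the start of transcription can be far from the annotated hairpin.

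The mature sequences below are those of the microRNAs on which the results turn, as the RefSeq annotation of WBcel235 places them. The capitals mark the seed, bases 2 to 8. The first group holds the heterochronic microRNAs of the let-7 family, the genes whose products set the order of larval stages, which share the seed GAGGUAG.
let-7: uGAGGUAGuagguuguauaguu
miR-48: uGAGGUAGgcucaguagaugcga
miR-241: uGAGGUAGgugcgagaaauga
miR-84: uGAGGUAGuauguaauauuguaga

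The second group holds lin-4 and its relative mir-237, which share the seed CCCUGAG.
lin-4: uCCCUGAGaccucaaguguga
miR-237: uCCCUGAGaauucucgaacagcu

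The third group shows 1 or more members of each of the other families listed here that had a peak. The list of families is not complete, and genes of families outside it count with the other microRNA genes. All 8 genes of the mir-35 family carry the seed CACCGGG, all 6 of the mir-51 family ACCCGUA and all 5 of the mir-64 family AUGACAC. Of the 5 genes listed here as the mir-58 family, 4 carry GAGAUCA.
miR-35: uCACCGGGuggaaacuagcagu
miR-42: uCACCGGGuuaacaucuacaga
miR-51: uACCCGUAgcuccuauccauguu
miR-53: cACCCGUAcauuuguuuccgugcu
miR-54: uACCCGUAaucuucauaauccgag
miR-80: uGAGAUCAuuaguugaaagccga
miR-58.1: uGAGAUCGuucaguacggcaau
miR-229: aAUGACACugguuaucuuuuccaucg
miR-64: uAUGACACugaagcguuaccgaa

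Of the 261 microRNA genes, 47 (18.0%) had a LIN-38 summit nearby. A summit is the highest point of a peak, and peaks came from the conservative list that the authors made from both samples, which held 5405 nuclear summits. A summit counted as near when it lay inside the gene or at most 200 bp from either end, or from 1 to 1000 bp upstream of the annotated 5′ end. The first window held a summit for 23 microRNA genes (8.81%), against 17.0% of the 19973 protein-coding genes. The upstream window held one for 40 microRNA genes (15.3%), against 14.7% of protein-coding genes. By either window the shares were 18.0% of microRNA genes and 22.6% of protein-coding genes. Thus the share of microRNA genes bound upstream lay close to the background, and the share bound at or beside the gene lay below it. The median annotated length was 95 bp for microRNA genes and 2027 bp for protein-coding genes, so the window that includes the gene body is far smaller at a microRNA gene. No test was made between these classes. The count of 47 was 30 with the top 50% of peaks by signal, and 22 when each summit was given only to the gene with the nearest 5′ end.

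The 47 microRNA genes fell into 7 with a summit in the 200 bp window alone, 24 with one in the upstream window alone and 16 with both. They shared 40 peaks, and 5 of these peaks served 16 genes together, so the genes are not independent counts. When neighbours on 1 strand at most 5000 bp apart were joined, the 261 genes formed 216 units, of which 33 (15.3%) had a summit. Other classes differed widely by the same windows. Transfer RNA genes had the highest share, 356 of 612, followed by small nucleolar RNA genes at 42.2% and small nuclear RNA genes at 38.8%. The share was 16.0% for long intergenic RNA genes, 5.73% for pseudogenes and 1.72% for piRNA genes. The microRNA share was thus below those of transfer, small nucleolar and small nuclear RNA genes and above that of piRNA genes.

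**Figure D1:**
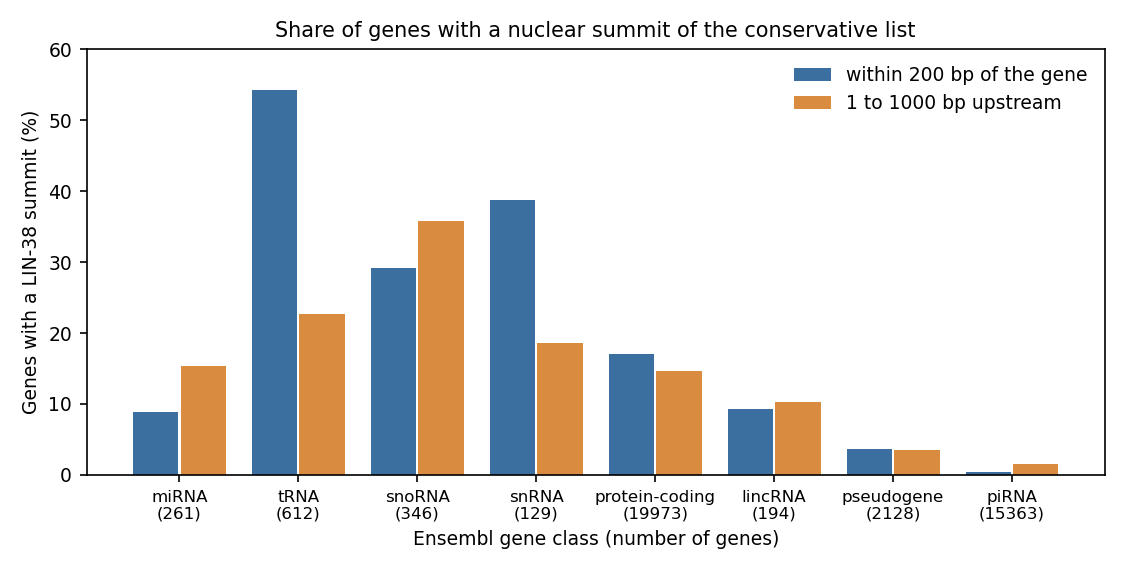
Percent of genes with a LIN-38 summit within 200 bp and within 1000 bp upstream (vertical axis), for microRNA genes at the left and the other gene classes to their right. MicroRNA genes reach 8.81% and 15.3%, protein-coding genes 17.0% and 14.7%, and transfer RNA genes 54.2% and 22.7%.

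Most of the 47 genes had their highest peak before the hairpin. The windows favour this side, since they reach 1000 bp upstream but only 200 bp past the 3′ end. By the highest peak of each gene, 39 genes had the summit upstream of the annotated 5′ end, 28 of them within 500 bp. For a further 6 it lay inside the gene and for 2 past its 3′ end. The median position over the 47 genes was 289 bp upstream. These are counts of genes, whose highest peaks were 35 different ones, so a shared summit counts more than once. Given the uneven windows, the counts do not by themselves show a preference for either side. The windows of 200 bp around all microRNA genes cover 0.118% of the nuclear genome and held 23 summits, 0.426% of all, a ratio of 3.62. The upstream windows cover 0.233% and held 30 summits, 0.555%, a ratio of 2.38. These ratios set the summits against an even spread over the genome, and no test was made of them. In steps of 100 bp, the protein-coding profile was highest from 101 to 200 bp upstream, where 3.87% of genes had a summit. The microRNA profile reached 3.45%, or 9 genes, in the same step and again from 400 to 499 bp downstream of the 5′ end, past most hairpins and outside both windows.

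**Figure D2:**
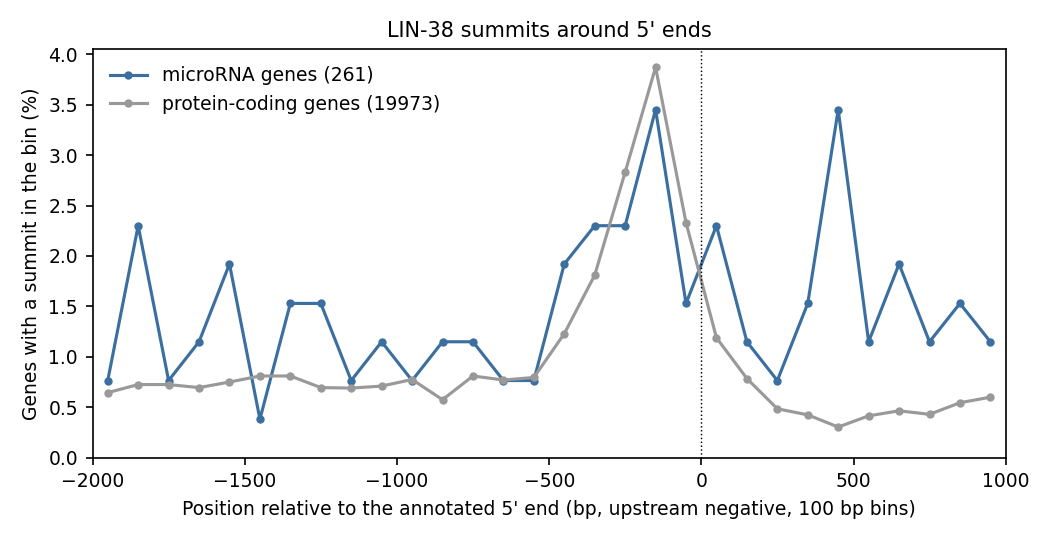
Percent of genes with a summit in each 100 bp step from the annotated 5′ end (vertical axis) against the position in bp, upstream negative (horizontal axis), for microRNA genes and for protein-coding genes. Both profiles are high from 101 to 200 bp upstream, at 3.45% of microRNA genes and 3.87% of protein-coding genes, and each microRNA step holds 1 to 9 genes.

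Among the heterochronic microRNAs, lin-4, mir-48 and mir-241 had a peak upstream, and let-7 and mir-84 had none. All 3 peaks were also in the thresholded lists that the authors made from each replicate alone. The authors' score, a scaled measure of reproducibility, is at least 830 in those lists. It was 1000 for mir-48 and mir-241 in both replicates and for lin-4 in replicate 2. For lin-4 in replicate 1 it was 851, close to that limit. With the top 50% of peaks by signal, mir-241 had a summit and lin-4 and mir-48 had none. When each summit went only to the nearest 5′ end of any gene but piRNA genes, mir-48 had one and lin-4 and mir-241 had none. The gene lin-4 (chrII:5902254-5902347, + strand) represses lin-14 and lin-28 so that animals can leave the first larval stage, and it lies in an intron of F59G1.4 on the same strand. Its summit was 422 bp upstream, with a signal value of 142 in the conservative list, and the matching peak had 68.8 in replicate 1 and 80.8 in replicate 2. The signal value is the authors' own measure of a peak, on a scale that is not stated, and it is used here only to describe and rank peaks. The thresholded lists of single replicates run lower on this scale than the list from both, with medians over their nuclear peaks of 138 and 133 against 211. The replicate values given here come from the ranked lists. There the peaks matched to the conservative list had medians of 109 in replicate 1 and 108 in replicate 2.

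The genes mir-48 and mir-241, which act with mir-84 to end second-stage cell fates by repressing hbl-1, are neighbours on chromosome V and each had a summit of its own. At mir-241 (chrV:14366188-14366283, − strand) the summit was 401 bp upstream with a signal of 229, and 137 in replicate 1 and 97.7 in replicate 2. At mir-48 (chrV:14364412-14364509, − strand) it was 156 bp upstream with a signal of 138, and 70.7 in replicate 1 and 70.5 in replicate 2. The order of the 3 genes was thus mir-241, then lin-4 and mir-48, whose signals of 142 and 138 lay side by side and whose replicate values overlapped. All 3 lay in the lower part of the list or near its middle, at ranks 2516, 3802 and 3884 of 5405.

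The gene let-7, which times the change from the last larval stage to the adult, had no summit in either window. Its annotation is unusual, a transcript of 1732 bp (chrX:14743590-14745321, − strand) that holds the hairpin at 14744173 to 14744271, and the nearest summit was 1866 bp upstream of it. Below the threshold, the ranked list of replicate 1 held a candidate of signal 28.0 and score 138, which lay 272 bp upstream of the transcript. The ranked list of replicate 2 held one of signal 58.4 and score 733, inside the transcript and 377 bp upstream of the hairpin. The score is the authors' scaled measure of reproducibility, at least 830 in every thresholded list, so both candidates fell short of it, and they lay at different places. At mir-84 (chrX:16022404-16022478, − strand) the nearest summit was 2341 bp upstream, and only replicate 2 had a candidate, of signal 50.5 and score 167. Of the rest of the let-7 family, mir-793, mir-794 and mir-795 had no summit nearer than 54692, 6029 and 7145 bp. The lin-4 relative mir-237 had none in the windows, its nearest lying 326 bp past the 3′ end. These genes were below detection in these lists, which does not show that LIN-38 is absent from them.

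In the mir-51 family every listed gene had a summit, 6 of 6 in 3 of 3 units, which held for none of the other listed families. The gene mir-55b on the X chromosome was not in the family list and counted with the other microRNA genes. It had no summit in the windows. The highest peak of the family lay 89 bp upstream of mir-51 (chrIV:11026013-11026112, − strand), with a signal of 499, and 211 in replicate 1 and 285 in replicate 2. The neighbour mir-53 had a separate summit 108 bp upstream, with a signal of 216, and 107 in replicate 1 and 120.1 in replicate 2. Both summits stood close before their hairpins, while the mir-51 peak spans its whole hairpin and the mir-53 peak covers part of its own. Both peaks overlapped a peak of both replicates' own lists. At mir-51 that overlap did not cover 50% of the peak in both replicates, and mir-51 had no summit when such cover was required or when each summit went only to the nearest 5′ end. The X-linked cluster mir-54, mir-55 and mir-56, which runs against the strand of its host F09A5.3, shared 1 summit at 188, 358 and 495 bp upstream of the 3 genes. That peak had a signal of 253, and 130 in replicate 1 and 115 in replicate 2, and it too was in both lists. The gene mir-52 had a summit 758 bp upstream with a signal of 220.4, and 171 in replicate 1 and 75.6 in replicate 2. A second, of signal 105, lay 3 bp upstream, with 72.2 in replicate 1 and 57.5 in replicate 2. The mir-52 peaks were the less repeatable ones of the family, the first being in the list of replicate 1 only and the second in that of replicate 2 only.

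The mir-35 family, which acts redundantly in the embryo and the germ line, had a summit at 7 of 8 genes, all in 1 cluster on chromosome II (mir-35 to mir-41, 11537608 to 11538404, + strand). This cluster runs against the strand of Y62F5A.9, in an intron of it. The highest summit lay 242 bp before mir-35 and 942 bp before mir-41, with a signal of 410.0, and 233 in replicate 1 and 169 in replicate 2. It counted for all 7 genes, so they stand for 1 peak. Further summits flanked the cluster. One of signal 109 lay 982 bp upstream of mir-35, in neither replicate's own list, and one of 164 lay 24 bp past the end of mir-41, in the list of replicate 1 only. Another, of 152, lay 1034 bp from the start of mir-35, outside the windows. The eighth member, mir-42, carries the same seed but lies elsewhere on the chromosome, and its nearest summit was 9173 bp away.

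The mir-64 family had a summit at 4 of 5 genes, again by 1 peak. It lay 238 bp upstream of mir-229, the first hairpin of the cluster mir-229, mir-64, mir-65 and mir-66 in an intron of gcn-1, a translation regulator, on chromosome III. Its signal was 254, with 100.1 in replicate 1 and 144 in replicate 2, and it was in both replicates' own lists. The fifth member, mir-63, had its nearest summit at 12461 bp. In the mir-58 family, related to bantam of flies, 2 of the 5 listed genes had a summit. At mir-80 (chrIII:8865270-8865367, − strand) it lay 224 bp upstream with a signal of 416, and 186 in replicate 1 and 237 in replicate 2. At mir-58.1 (chrIV:3233254-3233350, + strand), in an intron of Y67D8A.2, it lay 298 bp upstream with a signal of 151, and 57.3 in replicate 1 and 108 in replicate 2, where alone it was in the replicate's own list. The 3 others, mir-81, mir-82 and mir-58.2, had their nearest summits 1539, 2540 and 25287 bp away. The gene mir-58c, beside mir-58.2, was not in the family list and counted with the other microRNA genes. It had no summit in the windows, the nearest lying 25460 bp away. Neither mir-1, which acts in muscle, nor lsy-6, which sets a left-right difference between taste neurons, had a summit in the windows, the nearest being 8409 and 68106 bp away.

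**Figure D3:**
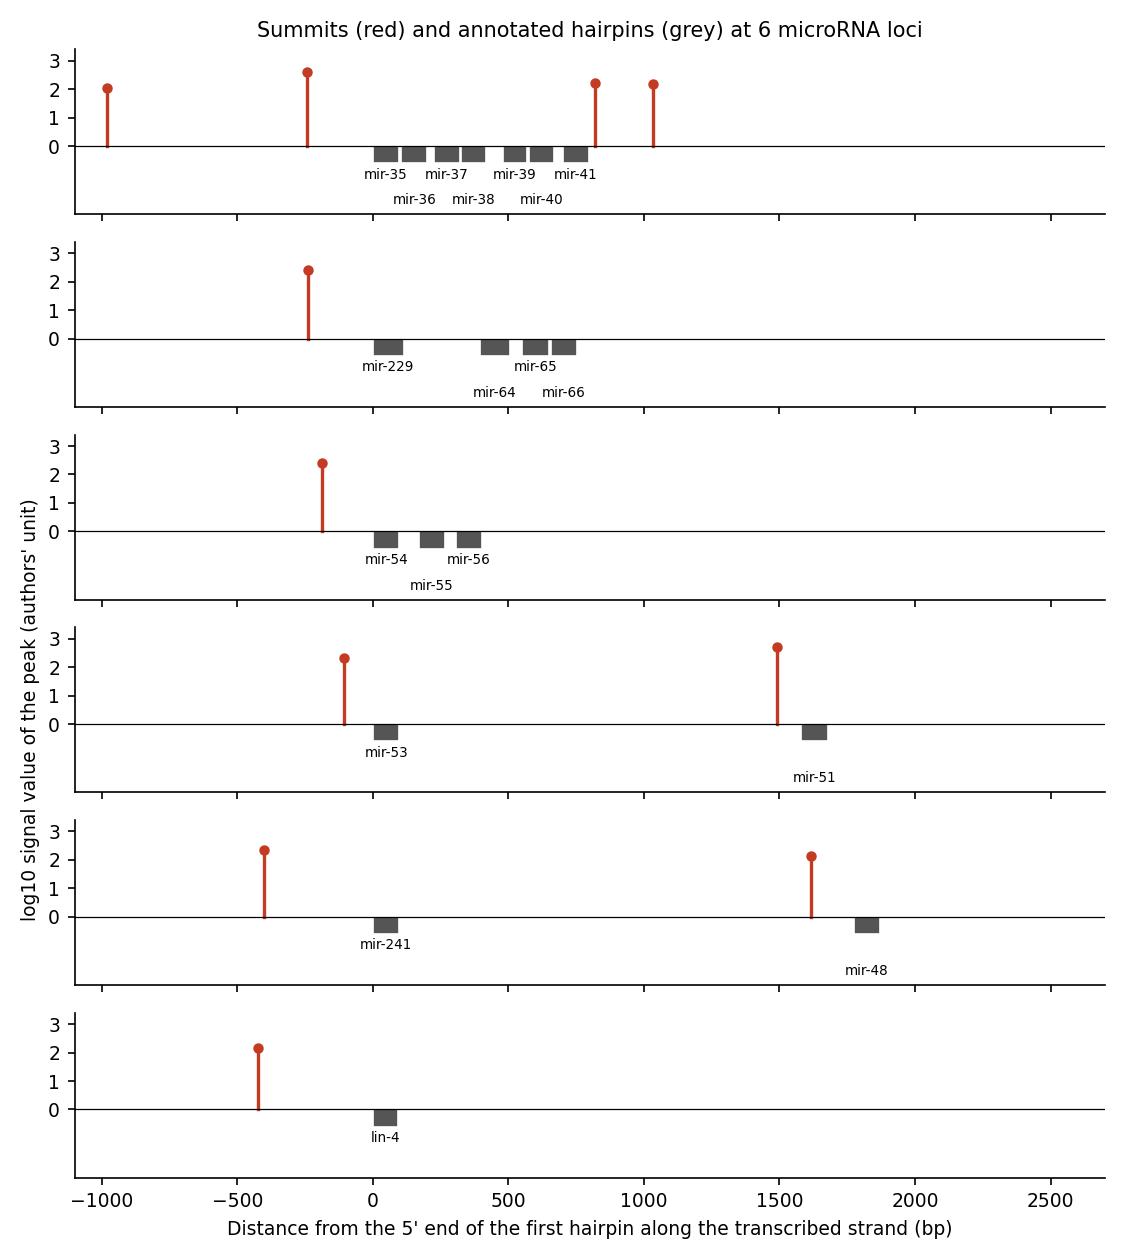
Positions of LIN-38 summits (red, log10 signal value on the vertical axis) and annotated hairpins (grey) at 6 microRNA loci, in bp along the transcribed strand from the start of the first hairpin. The highest summit lies before the first hairpin in the mir-35, mir-229 and mir-54 clusters, and mir-53, mir-51, mir-241 and mir-48 each have their own.

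Over the listed families together, 22 of 35 genes (62.9%) had a summit, against 25 of the 226 other microRNA genes (11.1%). Counted as units the shares were 9 of 21 (42.9%) and 24 of 198 (12.1%), since clusters of the families shared peaks. When each summit was given only to the gene with the nearest 5′ end, 6 of the 22 family genes kept one, namely mir-48, mir-53, mir-52, mir-41, mir-229 and mir-80. Of these, mir-41 kept only the summit of signal 164 past its end, which was in the list of replicate 1 only. The highest summit of the mir-35 cluster went to a gene outside the cluster. With windows of 100 bp or 500 bp upstream, mir-38, mir-39, mir-40, mir-64, mir-65 and mir-66, which share the peak of their cluster, had none. The families were picked with earlier results of these data in view, and the difference was not tested. Genes numbered from mir-1 to mir-90, with let-7, lin-4 and lsy-6, had a summit in 24 of 61 cases (39.3%). The rest, F39B1.3 and the genes numbered from mir-124 upward, had one in 23 of 200 (11.5%). This split was chosen after the values were seen. The 14 peaks at the listed families were also set beside the 26 at other microRNA genes. None of the 14 lay in a promoter window of a protein-coding gene, 500 bp upstream to 200 bp downstream of an annotated 5′ end, against 13 of the 26. None lay inside a microRNA gene, against 7 of 26, and 13 of 14 lay upstream of one, against 17 of 26. Their median signal was 218 with a range of 105 to 499, against 188 with a range of 82.5 to 8890. The thresholded lists of both replicates held 9 of the 14 family peaks and 18 of the other 26, and neither list held 1 of the 14 and 6 of the 26.

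**Figure D4:**
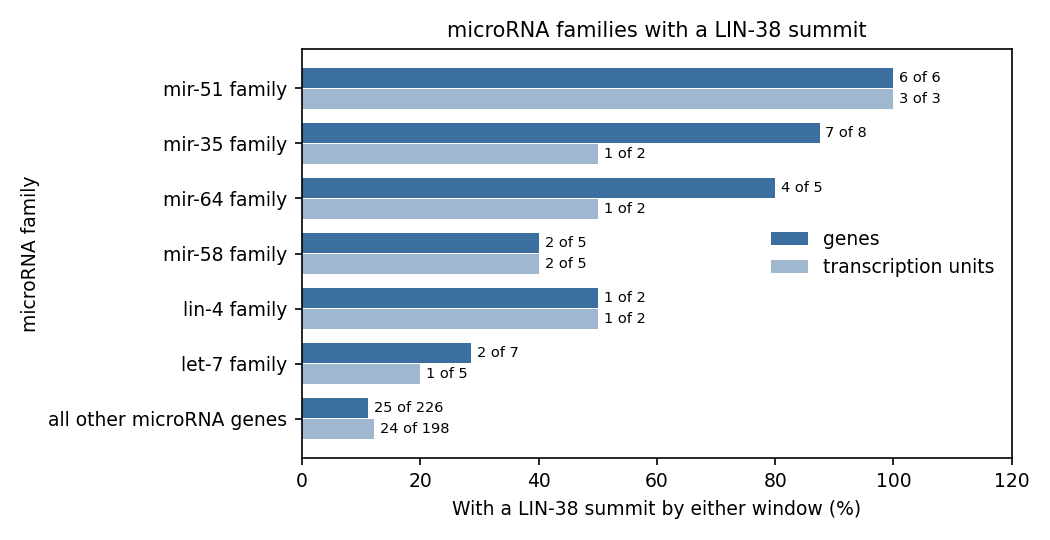
Percent of microRNA genes (dark bars) and of transcription units (light bars) with a LIN-38 summit by either window in each listed family that had one (horizontal axis), with all other microRNA genes at the bottom and the counts at the bar ends. The mir-51 family is at 6 of 6 genes, the let-7 family at 2 of 7, and the other microRNA genes at 25 of 226.

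The 100 bp around the summits of 9 family loci are given below as read from the WBcel235 genome, on the strand of the microRNA gene, 5′ to 3′. They are shown because the summits at these loci lie in these windows and outside the hairpins. The peaks of mir-51 and mir-53 are wider and also reach over their hairpins. Capitals mark matches to 5 motifs searched on both strands. These were GCGGGAA, an E2F-like element, TTCGAA and TTTGAA, which resemble the cell-cycle homology region, GAGAGA, a GA repeat, and GGTTCGA, the core of the tRNA B box, whose last letters can overlap TTCGAA.
lin-4, chrII:5901782-5901881 (+): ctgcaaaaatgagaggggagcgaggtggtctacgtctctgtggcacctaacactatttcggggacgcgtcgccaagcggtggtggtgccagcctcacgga
mir-241, chrV:14366634-14366733 (-): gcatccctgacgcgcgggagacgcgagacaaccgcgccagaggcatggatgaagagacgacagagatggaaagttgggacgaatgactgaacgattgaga
mir-48, chrV:14364615-14364714 (-): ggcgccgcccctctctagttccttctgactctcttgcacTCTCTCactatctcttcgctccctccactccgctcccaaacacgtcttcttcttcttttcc
mir-51, chrIV:11026151-11026250 (-): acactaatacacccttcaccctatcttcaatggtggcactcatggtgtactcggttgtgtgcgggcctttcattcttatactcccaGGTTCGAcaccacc
mir-53, chrIV:11027749-11027848 (-): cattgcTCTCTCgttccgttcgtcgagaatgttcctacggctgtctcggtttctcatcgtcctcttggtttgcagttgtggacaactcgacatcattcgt
mir-54 cluster, chrX:13145232-13145331 (-): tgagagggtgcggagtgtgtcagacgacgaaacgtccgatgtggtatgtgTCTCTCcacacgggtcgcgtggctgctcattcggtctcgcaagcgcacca
mir-35 cluster, chrII:11537316-11537415 (+): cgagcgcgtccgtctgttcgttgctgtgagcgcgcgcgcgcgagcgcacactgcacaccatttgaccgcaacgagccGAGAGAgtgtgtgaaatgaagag
mir-229 cluster, chrIII:2172164-2172263 (+): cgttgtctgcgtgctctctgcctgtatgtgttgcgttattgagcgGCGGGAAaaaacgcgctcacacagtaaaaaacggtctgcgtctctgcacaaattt
mir-80, chrIII:8865541-8865640 (-): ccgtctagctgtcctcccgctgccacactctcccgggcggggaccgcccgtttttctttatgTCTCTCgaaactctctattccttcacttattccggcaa

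Of these 9 windows, 5 held GAGAGA or its complement, at mir-48, mir-53, mir-80 and the mir-54 and mir-35 clusters. The mir-229 window held GCGGGAA, the mir-51 window held GGTTCGA, and those of lin-4 and mir-241 held none of the 5. Over all 40 peaks near microRNA genes, GAGAGA was in 10 windows, against 14.9% of all 5405 summits. GCGGGAA was in 3 (7.5%), against 3.27%, and GGTTCGA in 3 (7.5%), against 4.46%. TTCGAA was in 3 (7.5%), against 6.59%, and TTTGAA in 5 (12.5%), against 21.4%. With 40 windows, 1 window is 2.5 percentage points, and the differences were not tested. The median GC content was 48.5% in the windows near microRNA genes and 45.0% over all summits. A match states only that the letters occur in the window.

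The highest signals near microRNA genes were at promoters of protein-coding genes. The first by signal was at mir-354, which lies in a coding exon of rps-20, a ribosomal protein gene, with the summit 857 bp upstream in the shared promoter of rps-20 and ekl-4. Its signal was 8890, with 4358 in replicate 1 and 4543 in replicate 2. At mir-5595 the signal was 2298, with 1218 in replicate 1 and 1084 in replicate 2, in a promoter of nurf-1, a chromatin remodelling factor. At mir-4934 it was 1957, with 954 in replicate 1 and 998 in replicate 2, in the promoter of mtr-4, an RNA helicase of the exosome pathway. These values are several times those at the heterochronic microRNAs, and the replicates lay close together in all 3.

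The next genes by signal were mir-5549, with 1054 near eef-1A.1 and rfc-4, mir-2218.1, with 1002 near W09G3.8 and maea-1, and mir-4932, with 804 near klp-16 and smn-1. Their replicate values were 506 and 541 at mir-5549, 549 and 464 at mir-2218.1, and 419 and 371 at mir-4932, for replicates 1 and 2. A promoter of npp-5, a nuclear pore gene, held the summit near mir-2207, with a signal of 507, and 244 in replicate 1 and 252 in replicate 2. In all of these the summit was in a promoter window of a protein-coding gene as well as near the microRNA, and the lists do not tell which of them it belongs to. Among the 20 highest genes without such a promoter, mir-2214, in an intron of B0361.11, had a summit 12 bp upstream with a signal of 668, and 355 in replicate 1 and 313 in replicate 2. The summit at mir-4936 lay inside the gene, with a signal of 432, and 207 in replicate 1 and 253 in replicate 2. At mir-243 it lay 685 bp upstream, with 281, and 129 in replicate 1 and 124 in replicate 2. The remaining genes of the top 20 were mir-51, mir-80, the 7 of the mir-35 cluster and, tied at 254, those of the mir-229 cluster. All of the peaks named here were in both replicates' own lists. Outside the listed families and the top 20, mir-1829.3, mir-87 and mir-4813 had signals of 242, 131 and 118, and the remaining 12 genes with a summit had signals from 109 to 209.7.

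The 40 peaks near microRNA genes were spread over the whole list by signal. Their median was 205, against 211 over all 5405 peaks, and their middle range was 132 to 420, against 130 to 446. The 540 peaks with the highest signal, 9.99% of the list, held 4 of the 40. A promoter window of a protein-coding gene held 13 of the 40 (32.5%), against 47.0% of all peaks. Those 13 had a median of 507, against 283 for all promoter peaks. Peaks outside promoters and away from other small RNA genes made up 26 of 40 (65.0%), against 45.8%, with medians of 163 and 157. Only 1 of the 40 lay within 200 bp of a transfer RNA gene, that at mir-1829.3 with a signal of 242, against 5.7% of all peaks. The gene mir-1829.3 is named because of this count, after its values were seen. None of these differences was tested.

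Support from single replicates was counted for the same 40 peaks. Both replicates' own lists held 27 of the 40 (67.5%), against 64.6% of all peaks. Neither held 7 (17.5%), the same share as over all peaks. Over the 39 peaks with a value in each ranked list, the median log2 ratio of replicate 1 to replicate 2 was 0.01, with an SD across peaks of 0.43, against 0.04 and 0.40 over all peaks. The largest ratio, 1.17, was at mir-52 and the smallest, -0.91, at mir-58.1, both of them peaks found in the list of 1 replicate only, with conservative-list signals of 220.4 and 151. The peak past mir-41 had no value in replicate 2. Both peaks at mir-1829.3 were matched to 1 peak of replicate 1, with 140.4, and to separate peaks of replicate 2, with 89.6 and 65.5, so the ratio of 1.10 at the weaker one does not set like against like.

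**Figure D5:**
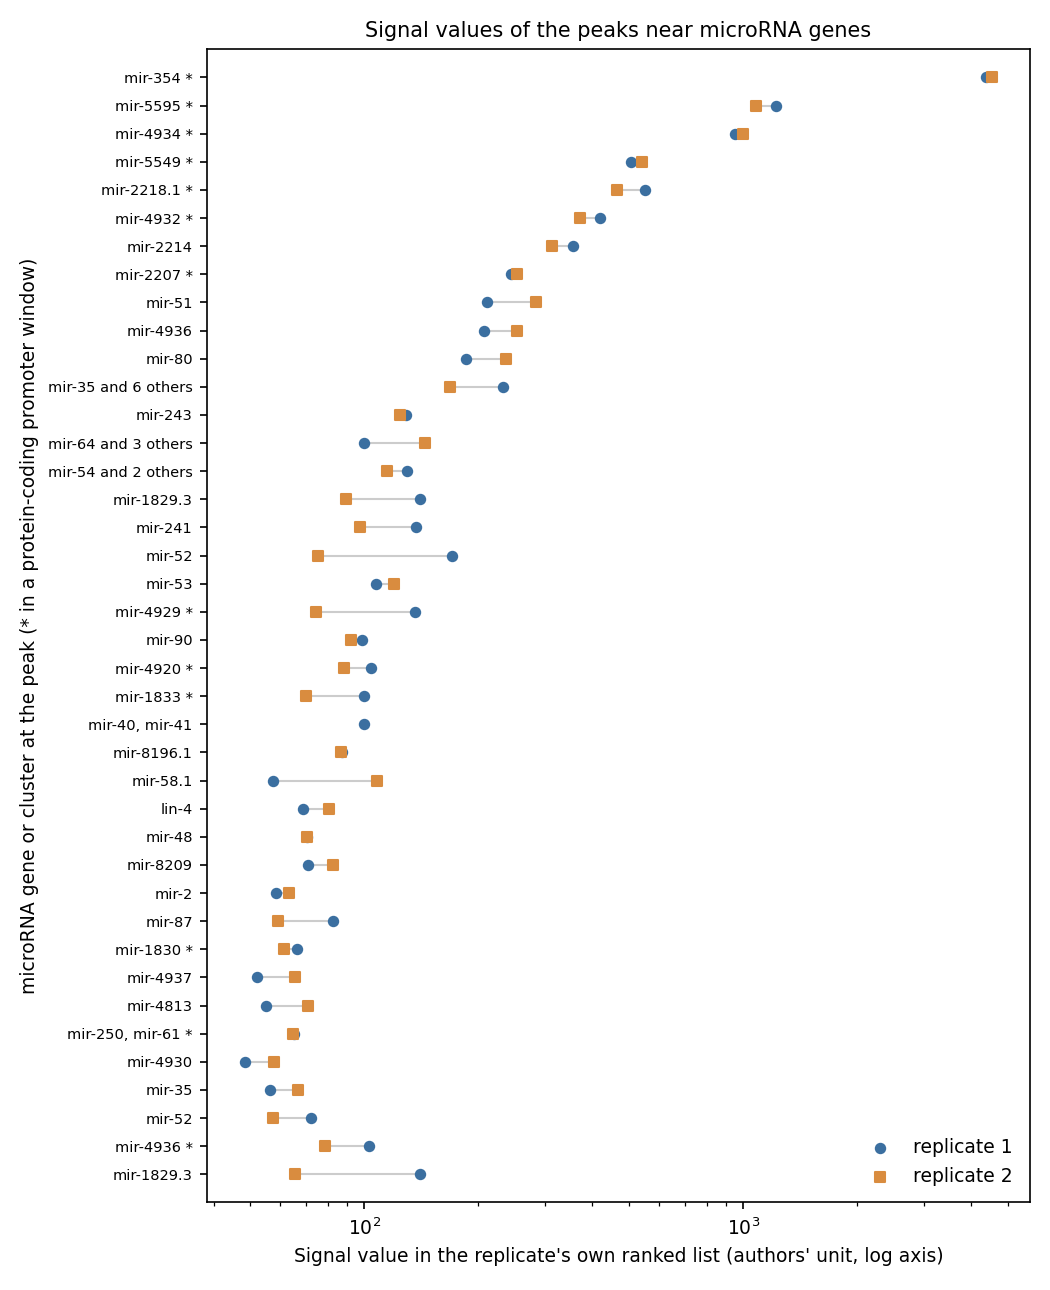
Signal value (horizontal log axis, the authors' unit) of each of the 40 peaks near microRNA genes in the ranked list of replicate 1 (circles) and replicate 2 (squares), ordered by signal in the conservative list, with an asterisk for protein-coding promoter windows. The replicates lie side by side at most peaks, with the widest gaps at mir-52, the weaker peak of mir-1829.3 and mir-58.1, while both peaks of mir-1829.3 take the value of the same replicate 1 peak, and the peak of mir-40 and mir-41 has no square.

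The counts differed by location. Of the 152 microRNA genes outside protein-coding genes, 16 (10.5%) had a summit, against 18 of 76 (23.7%) in a host gene on the same strand and 13 of 33 (39.4%) in one on the opposite strand. Of the 13 opposite-strand genes 10 belong to 2 clusters, the 7 genes from mir-35 to mir-41 and the 3 from mir-54 to mir-56. Counted as units it was 5 of 24 (20.8%), beside 15 of 71 (21.1%) on the same strand and 13 of 122 (10.7%) outside genes. On the X chromosome 5 of 74 microRNA genes (6.76%) had a summit, against 42 of 187 on the autosomes (22.5%). Protein-coding genes showed the same order, with 9.85% on X and 24.6% on autosomes. Of the 5 X-linked microRNA genes 3 were mir-54, mir-55 and mir-56, which share 1 peak. Units of several microRNA genes had a summit in 9 of 24 cases (37.5%) and single genes in 24 of 192 (12.5%). A unit of several genes has more windows than a single gene.

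The remaining 214 microRNA genes had no summit in either window. Ranked lists, which also hold peaks below the threshold, had a candidate in the windows in both replicates at 65 of them (30.4%) and in neither at 116. The same held for 27.1% of the protein-coding genes without a summit, so such candidates are common. The limits of the windows split close neighbours. Just inside 200 bp were mir-4813, mir-87 and mir-54 at 186, 187 and 188 bp, and just outside were mir-80, mir-354 and mir-229 at 224, 225 and 238 bp, for the nearest summit. These 3 genes, mir-80, mir-354 and mir-229, still counted, through the upstream window. By each gene's nearest upstream summit, just inside 1000 bp were mir-354, mir-66 and mir-41 at 857, 894 and 942 bp. The second summit of mir-35, at 982 bp, lay closer to that limit, but mir-35 counted through its nearer one. Just outside were mir-8206, mir-353 and mir-235 at 1003, 1024 and 1110 bp, with signals of 211, 769 and 433, and these 3 did not count.

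Genes of the microRNA pathway were set beside the microRNA genes themselves. Of 17 protein-coding genes of microRNA production and action, 8 (47.1%) had a promoter summit, against 14.6% of all protein-coding genes. The highest was at pash-1, the partner of Drosha that recognises the hairpin, with 2252, and 1192 in replicate 1 and 1051 in replicate 2. Next was vig-1, a component of the silencing complex, with 1924, and 940.3 in replicate 1 and 978 in replicate 2. Then came hrpk-1, an RNA-binding protein that aids microRNA function, with 826, and 410 in replicate 1 and 442 in replicate 2. The exonuclease gene xrn-2 had 762, with 381 in replicate 1 and 386 in replicate 2. At tsn-1, another silencing complex gene, the signal was 444, with 217 in replicate 1 and 216 in replicate 2, at a promoter shared with F10G7.9. These 5 peaks were in both replicates' own lists.

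The other 3 were weak. The peak at dcs-1, a scavenger decapping enzyme, had a signal of 129 and was in the list of replicate 1 only. Those at alg-1, an Argonaute, and drsh-1, which encodes Drosha, had 118 and 91.1 and were in neither list. No promoter summit was found at dcr-1, which encodes Dicer, or at alg-2, ain-1, ain-2, xrn-1, paxt-1, nhl-2, pup-2 and ebax-1. Of 11 heterochronic targets and partners, 3 (27.3%) had one. At lin-28, a target of lin-4 that blocks let-7 processing, the signal was 1584, with 838 in replicate 1 and 728 in replicate 2. At lin-66 it was 139, with 62.3 in replicate 1 and 97.7 in replicate 2, and at lin-14, the first known target of lin-4, it was 110, with 80.2 in replicate 1 and 59.5 in replicate 2. The lin-14 peak was in the list of replicate 1 only. The targets lin-41, hbl-1, daf-12 and let-60 had none, nor did lin-29, lin-42, lin-46 and blmp-1. These lists were drawn up with earlier results of these data known, and their shares were not tested.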

How the data were processed

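LIN-38-EGFP ChIP-seq of 2 biological replicates of whole L4 larvae was analysed from the peak lists that the authors deposited on ce11. Each peak's signal value is the authors' own, and its score, per the deposited lists, is a scaled irreproducible discovery rate (IDR) that was at least 830 in every thresholded list. No label or header states how reads were aligned, how peaks were called or how the signal was scaled (not given in the sources used here). Sequencing depth is unknown, since only peak lists were analysed here, and no interval can be given. Control libraries were not analysed here.

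Summits of the 5405 nuclear peaks of the conservative list from both samples (5431 in all, 26 not nuclear) were compared with Ensembl release 115 genes, in Python 3.11.15 with pandas 2.3.3. Coordinates count from 1, and 0 peaks lay beyond a chromosome end of WBcel235. Symbols and mature sequences came from RefSeq, matched by gene ID for 261 of 261 genes, of which 260 had a mature sequence. Values of a replicate are those of the peak in its own ranked list that overlaps by at least 1 bp and has the nearest summit, and a peak counted as in a replicate's own list when it overlapped a peak of its thresholded list. Both ranked lists of the series were not used. The genes named are the 5 heterochronic microRNA genes, the 20 with the highest signal, every listed family member and pathway gene with a summit, and the 3 just inside and outside each limit; other family and pathway genes are named only as lacking one. The members and lists were chosen with earlier results of these data known. With 1 group of 2 replicates no test was made, and shares are given beside those of other genes or all peaks. The window, unit and matching steps were tested on simulated data. Alternatives covered the peak list, the replicate, the peak threshold, the windows, the joining of units and other genes near the summit.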

Additional observations from a re-analysis of the deposited data

How the results depend on the processing

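The count of 47 microRNA genes stayed within 1.5 times of its value in the other thresholded list of the series (49), with replicate 2 or replicate 1 alone (42 and 46), with peaks in both replicates' own lists (36, or 35 with overlap over 50% of the peak) and without promoter summits (34). The genes were not all the same ones. Of the 49, 42 and 46 genes, 44, 38 and 40 were among the 47. The count of 47 fell to 30 with the top 50% of peaks, where protein-coding genes had 14.7% and microRNA genes 11.5%. It fell to 22 when each summit went only to the nearest 5′ end of any gene but piRNA genes. It was 71 with windows of 500 bp and 2000 bp upstream. The count of 23 within 200 bp was 11 with the top 50% of peaks, 15 and 14 with peaks in both lists at the 2 overlaps, 13 within 100 bp and 51 within 500 bp. The count of 40 upstream was 62 within 2000 bp, and the 33 units became 18 with the top 50% of peaks. The median signal of 205 was 188 in the other list, 432 with the top 50%, 254 with peaks in both lists at either overlap, and 103 to 107 in the lists of single replicates, whose scale runs lower. Of the 22 family genes, 21 or 22 had a summit with either replicate alone and 6 when each summit went only to the nearest 5′ end. At let-7 a summit was found only with the windows of 500 bp and 2000 bp upstream. Scoring its hairpin in place of its transcript, an alternative chosen after seeing the data, left the count at 47. The causes of these shifts were not tested. Unknown depth limits every statement that a gene lacked a peak. No paired analysis was possible because the 2 replicates form 1 group.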

Other observations

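The summit windows of mir-5595 on chromosome II and mir-4934 on chromosome IV, which follow mir-354 in signal, were seen to share 2 exact runs, each in both windows on the strand of the microRNA gene. The longer has 12 bases and was in 6 of all 5405 summit windows (0.111%), and the other has 11 bases and was in 16 (0.296%), counted on both strands. No other peak near a microRNA gene, of 40, held either. The runs were picked after the windows were seen, so these counts are a description only.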
